A study of Mus musculus with 2 samples.

Results

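Fc receptors bind the constant region of antibodies and pass the encounter on to the cell. The Fc receptors and their signalling chain were described here by 7 genes, chosen by symbol: the activating IgG receptors Fcgr1, Fcgr3 and Fcgr4, the inhibitory IgG receptor Fcgr2b, the neonatal Fc receptor Fcgrt, the shared signalling chain Fcer1g and the kinase Syk. They are 7 of 53801 genes listed, and all 7 were among the 13445 genes counted, meaning those with 10 or more counts in each library.

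RNA-seq was carried out on microglia, the resident macrophages of the brain, from 2 sham-operated mice, 1 mouse per library. Both mice were Cx3cr1(CreER/wt) on a C57BL/6 background, so 1 of their 2 Cx3cr1 alleles carries a tamoxifen-inducible Cre recombinase and they served as wild-type controls for conditional knockouts. Both had received tamoxifen at 75 mg/kg/day for 4 days and sham surgery 14 days after the first injection, and cells of the left hemisphere were sorted as CD11c–Ly6G–CD11b+CD45low 3 days after surgery. The labels describe male mice of 8 to 10 weeks, whereas the study's methods describe an older range and both sexes, and the label for treatment reads none. The study was about the inflammatory responses of microglia and macrophages after stroke, and it used CD16 and CD32, the antigens encoded by Fcgr3 and Fcgr2b, as a surface marker of proinflammatory cells. Libraries of the stroke arm were not analysed here, so the data give the sham level of each gene and the spread between 2 mice, with no comparison of conditions and no p-value.

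The activating receptors have little signalling capacity of their own and depend on Fcer1g, the Fc receptor gamma chain, whose cytoplasmic tail holds an immunoreceptor tyrosine-based activation motif (ITAM). When antibody-coated material clusters the receptors, Src family kinases phosphorylate the tyrosines of the ITAM and Syk docks on them, which leads to phagocytosis and cytokine release. Fcgr2b carries an inhibitory motif (ITIM) in its own tail instead, which recruits the lipid phosphatase encoded by Inpp5d and dampens the same pathway. Fcgrt works apart from this circuit: it pairs with beta-2 microglobulin (B2m) inside endosomes and saves IgG and albumin from degradation.

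The coding sequences of both motifs are printed because activating and inhibitory receptors are set side by side below. The ITAM of Fcer1g runs from codon 65 to codon 79 and the ITIM of Fcgr2b from codon 317 to codon 322 (GENCODE M21 transcripts Fcer1g-201 and Fcgr2b-201, 5′ to 3′), with the codons of their tyrosines in capitals.
Fcer1g ITAM: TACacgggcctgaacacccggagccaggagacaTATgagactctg
Fcgr2b ITIM: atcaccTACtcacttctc
The loose letter pattern used to find the ITIM also matched in Fcgr1, Fcgr4, Fcer1g and Fcgrt, so a match alone does not set Fcgr2b apart, and it is named an ITIM from background knowledge. The gene models encode 86 residues for Fcer1g and 340 for Fcgr2b, against 267 for Fcgr3, 249 for Fcgr4, 404 for Fcgr1, 365 for Fcgrt and 629 for Syk.

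The depth was 23381026 counts on genes for library 1 and 41142609 for library 2, and levels were scaled to 1000000 of these (CPM). Where no count was found, the limit of 3 counts corresponds to 0.128 and 0.0729 CPM. Microglia markers were abundant in both libraries, with all 10 of 10 counted and a sum of 33827 and 43523 CPM in libraries 1 and 2. Markers of immature neutrophils summed to 2191 and 35463 CPM, 16.2-fold higher in library 2, with 10 of 10 past 2-fold higher. Those of mature neutrophils summed to 3463 and 30334 CPM, with 8 of 9 past 2-fold higher. Over all counted genes, 5.74% were past 2-fold higher. The other mature marker, Csf3r, was lower in library 2, with 517 and 354 CPM. Ngp, a granule protein gene, had the highest CPM of the immature neutrophil genes (749 and 16031 CPM) and S100a8 the highest of the mature ones (1396 and 14266 CPM), although the gate left out cells with Ly6G. The gene Ly6g itself had 15.4 and 211 CPM. Monocyte markers summed to 283 and 620 CPM, led by Ly6c2 in CPM, and those of border-associated macrophages to 739 and 364 CPM, led by F13a1 in CPM. All ranks within the marker lists are by CPM, which takes no account of gene length. Per exonic length, Pf4 stood above F13a1 and S100a9 above S100a8 in both libraries. B cell markers summed to 570 and 778 CPM, nearly all from Ighm, endothelial markers to 17.6 and 15.9 CPM, led by Pecam1, and NK cell markers to 0.428 and 0.924 CPM, led by Prf1 in library 1 and Klrb1c in library 2. Neutrophils, monocytes and border-associated macrophages also carry Fc receptors, and in bulk samples a different number of such cells and a different amount of RNA per cell cannot be told apart. The part of these cells in the values below was not tested.

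Between the libraries, 772 of the 13445 counted genes (5.74%) were more than 2-fold higher in library 2 and 3485 (25.9%) more than 2-fold lower, with a median log2 ratio of −0.26. The common biological coefficient of variation (edgeR) was 0.479. Of the 7 genes of the Fc receptor group, 0 were more than 2-fold higher and 1, Syk, was more than 2-fold lower. Added together, the 7 genes reached 5709 and 6419 CPM. The ratios given here are library 2 over library 1, and their 95% exact binomial intervals take in counting error alone and no spread between mice. Reads copied by amplification do not stand for separate molecules, so the intervals can be too narrow even for counting error.

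**Figure D1:**
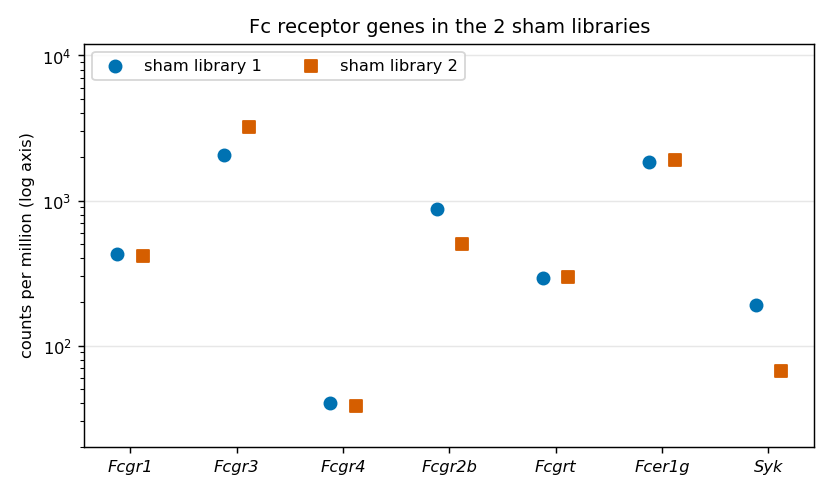
Level of the 7 Fc receptor genes in CPM on a log axis, with 1 point for each of the 2 sham libraries (circles, library 1; squares, library 2). Fcgr3 and Fcer1g stand highest, Fcgr4 and Syk lowest, and the points of Fcgr2b, Fcgr3 and Syk lie furthest apart.

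Fcgr3, the low-affinity activating receptor and the source of the CD16 antigen in mice, was the most abundant of the receptors. It lies on the minus strand of chr1:171051174-171064935 (GRCm38). Fcgr3 had 48119 and 131234 counts in libraries 1 and 2, or 2058 and 3190 CPM (mean 2624 ± 800 CPM, SD, n = 2). The ratio was 1.55 (1.53 to 1.57), the highest of the 7 genes, and 88.7% of the counted genes had a lower one. Its mean CPM, which takes no account of gene length, exceeded that of 99.7% of the counted genes.

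Fcgr1 encodes the high-affinity IgG receptor, a textbook target of interferon-gamma. It lies apart from the other IgG receptors, on the minus strand of chr3:96282909-96293969. Fcgr1 had 10002 and 17024 counts, or 428 and 414 CPM (421 ± 9.90 CPM, SD, n = 2). By total counts the ratio was 0.967 (0.944 to 0.992), nearly level between the 2 mice, but its sign changed with the scaling, as given below.

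Fcgr4, a receptor of intermediate affinity for mouse IgG2 subclasses that neutrophils and monocytes carry, was the lowest of the IgG receptors. It lies on the plus strand of chr1:171018920-171029761. Fcgr4 had 942 and 1573 counts, or 40.3 and 38.2 CPM (39.3 ± 1.45 CPM, SD, n = 2). The ratio was 0.949 (0.875 to 1.03), an interval that includes 1, but its sign changed with the scaling, as given below. The summed immature neutrophil markers were 2191 and 35463 CPM in the same libraries, and their part in the level of Fcgr4 was not tested.

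Fcgr2b, the inhibitory receptor and one source of the CD32 antigen, was higher in library 1. It lies on the minus strand of chr1:170958617-170976547. Fcgr2b had 20320 and 20536 counts, or 869 and 499 CPM (684 ± 262 CPM, SD, n = 2). The ratio was 0.574 (0.563 to 0.586), so the gene was 1.74-fold higher in library 1. The difference stayed within the 2-fold limit that 25.9% of all counted genes passed in this direction, and 31.8% of the counted genes had a lower ratio. Of the 8 border-associated macrophage markers, 0 were higher and 3 lower past 2-fold in library 2, with a median log2 ratio of −0.36, beside −0.26 over all counted genes.

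Fcgrt, the neonatal Fc receptor, lies on the minus strand of chr7:45092990-45103851. It had 6805 and 12154 counts, or 291 and 295 CPM (293 ± 3.09 CPM, SD, n = 2). The ratio of 1.01 (0.985 to 1.05) was the nearest to 1 of the group. B2m, the partner that Fcgrt needs to leave the endoplasmic reticulum, had 2101 and 3438 CPM.

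Fcer1g, the signalling chain, lies on the minus strand of chr1:171229572-171234365. It had 42826 and 78799 counts, or 1832 and 1915 CPM (1873 ± 59.1 CPM, SD, n = 2), with a ratio of 1.05 (1.03 to 1.06). Its mean CPM, again without regard to gene length, exceeded that of 99.6% of the counted genes. Tyrobp, the sister ITAM chain used by Trem2 and other receptors, stood at 1916 and 2113 CPM in the same libraries.

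Syk, the kinase that reads the phosphorylated ITAM, was the gene of the group that differed most. It lies on the plus strand of chr13:52583173-52648792. Syk had 4470 and 2759 counts, or 191 and 67.1 CPM (129 ± 87.8 CPM, SD, n = 2). The ratio was 0.351 (0.334 to 0.368), so Syk was 2.85-fold higher in library 1, and 14.2% of the counted genes had a lower ratio.

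Levels can be compared between genes only per length. Counts were therefore divided by the exonic length of each gene and scaled to a sum of 1000000 over all genes (TPM). Fcer1g was first with 5961 and 5022 TPM (5491 ± 664 TPM, SD, n = 2), followed by Fcgr3 with 3372 and 4211 TPM (3791 ± 593 TPM, SD, n = 2). The ranges of the 2 did not overlap. Next stood Fcgr1 with 470 and 366 TPM, Fcgrt with 394 and 322 TPM and Fcgr2b with 427 and 198 TPM, and the ranges of these 3 overlapped. Fcgr4 had 91.2 and 69.8 TPM and Syk 58.1 and 16.4 TPM. Fcgr4 and Syk were thus the lowest pair, and by exonic length their ranges did not overlap. With the longest transcript of each gene as its length, they stayed the lowest pair but their ranges overlapped. Syk then stood above Fcgr4 in library 1 and below it in library 2. The order of the 3 middle genes turned on the length used: with the longest transcript in place of all exons, which is 3544 bases instead of 5790 for Fcgr2b, it was Fcgr2b, Fcgrt and Fcgr1.

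Among the 4 IgG receptors, Fcgr3 took 77.3% of the summed TPM in library 1 and 86.9% in library 2 (82.1% ± 6.78, SD, n = 2). Fcgr1 took 10.8% and 7.56%, Fcgr2b 9.79% and 4.08%, and Fcgr4 2.09% and 1.44%. Fcgr3 was therefore the main IgG receptor transcript in both mice, and the share of the inhibitory receptor was the one that differed most in proportion. The 3 activating receptors together stood 9.21-fold above Fcgr2b in library 1 and 23.5-fold above it in library 2 (16.4 ± 10.1, SD, n = 2). With the longest transcripts these ratios were 7.04 and 18.2. The signalling chain kept closer to its receptors, since Fcer1g was 1.52 times and 1.08 times the summed TPM of the activating receptors. Fcer1g was 0.730 and 0.692 times the TPM of Tyrobp, and 103 and 306 times that of Syk. Fcgrt was 0.0567 and 0.0352 times the TPM of B2m.

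**Figure D2:**
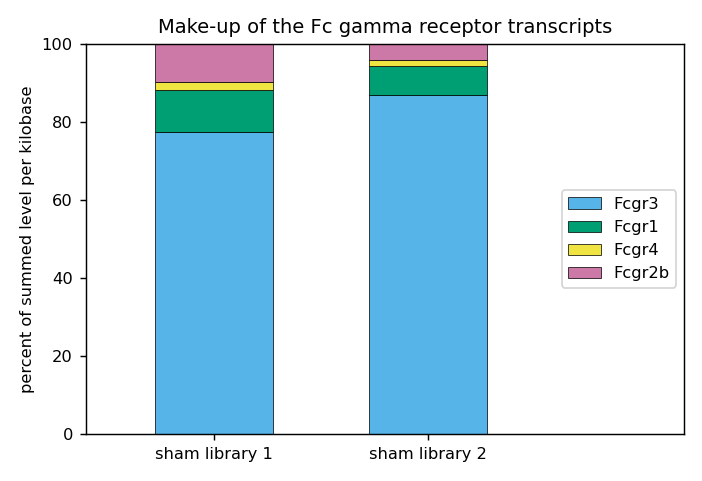
Share of each of the 4 IgG receptor genes in their summed level per kilobase (TPM), in percent, with 1 stacked bar for each sham library. Fcgr3 fills 77.3% and 86.9% of the bars, and the top segment, Fcgr2b, is 9.79% in library 1 and 4.08% in library 2.

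Fcgr2b and Fcgr3 are close relatives, which bears on how reads were divided between them. Their coding sequences were identical at 86.7% of aligned bases and their proteins at 67.8% of aligned residues, while all other pairs of the 4 IgG receptors were between 64.1% and 68.6% identical in coding bases. The longest run shared by both covers 129 bases of the extracellular part, from base 278 of the Fcgr2b coding sequence and base 263 of that of Fcgr3 (GENCODE M21, 5′ to 3′, shown because a read within it cannot tell the genes apart).
Fcgr2b and Fcgr3: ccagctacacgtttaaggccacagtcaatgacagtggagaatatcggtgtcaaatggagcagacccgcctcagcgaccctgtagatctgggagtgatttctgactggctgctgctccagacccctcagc
In windows of 75 bases, Fcgr3 shared 94 of 1733 exonic windows (5.42%) with Fcgr2b, and Fcgr2b shared 313 of 5768 (5.43%) with some other gene, 94 of them with Fcgr3. The other 5 genes shared 0 windows with any gene. How the counting treated reads that fit both genes is not given in the sources used here, so the values of Fcgr2b and Fcgr3 are uncertain to that extent. Whether the counting used strand is not stated either. The antisense genes that overlap Fcgr2b and Fcgrt, Gm38204 and Gm45669, had 1 count each in library 1 and 0 in library 2. These counts cannot show whether reads were lost in the overlaps, since reads that fit both genes may have been left out of both.

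Of the 7 genes, 4 lie in one cluster on chromosome 1, where 275.7 kb run from the lower end of Fcgr2b to the upper end of Fcer1g. From Fcrlb to Fcer1g the files list 21 genes, of which 9 were counted. Its genes differed widely in level: the 4 counted genes of the interval outside the Fc receptor family, Cfap126, Sdhc, Pcp4l1 and Tomm40l, had between 1.11 and 113 CPM. Fcgr4 stands between Fcgr2b and Fcgr3 and was far below both. The Fc receptor-like genes at the edge were low, with 74 and 76 counts for Fcrlb and 0 and 23 for Fcrla.

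**Figure D3:**
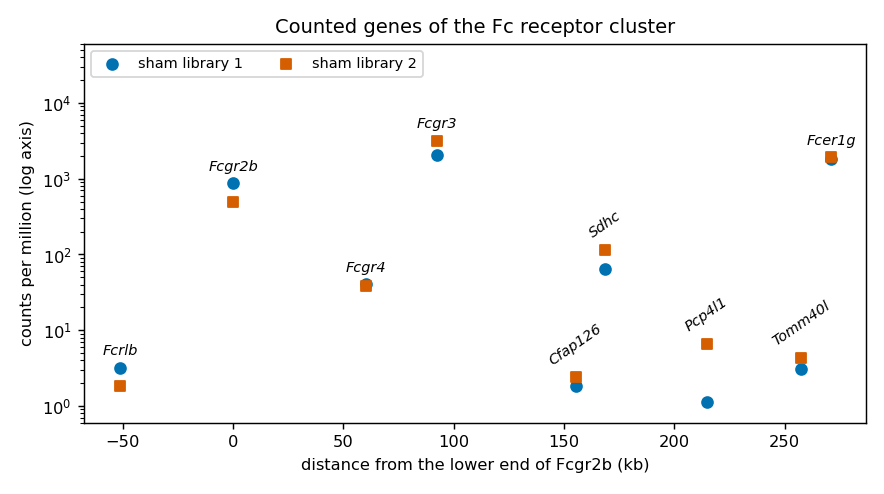
Level in CPM (log axis) of the 9 counted genes of the chromosome 1 cluster against the distance of their lower end from that of Fcgr2b in kb, with 1 point per sham library. Fcgr3 and Fcer1g stand highest, and the 4 genes between them, which are outside the family, lie at or below 113 CPM.

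Upstream sequences were searched for 3 motifs on both strands: the interferon-gamma-activated site GAS (TTCNNNGAA), the interferon-stimulated element ISRE (GAAA, any 2 bases and GAAA) and the core of the site for PU.1 (GAGGAA), a transcription factor of macrophages. Within 250 bases before the start, 7.02%, 2.98% and 23.3% of 32851 mouse promoters held them. The upstream stretch of Fcgr1 held a GAS and a PU.1 core, that of Fcgr4 an ISRE and a PU.1 core, and both RefSeq starts of Fcgr3, which lie inside the gene bounds of the files, the same PU.1 core. Of the 2 starts of Syk, 1 held a PU.1 core, and Fcgr2b, Fcer1g and Fcgrt held none of the 3. The 140 bases before the start are printed for the receptors with a match, to show where the matches lie, with matches in capitals (RefSeq, GRCm38.p6, 5′ to 3′ on the strand of the gene; matches on the opposite strand appear as the reverse complement).
Fcgr1, chr3:96293970-96294109, minus strand: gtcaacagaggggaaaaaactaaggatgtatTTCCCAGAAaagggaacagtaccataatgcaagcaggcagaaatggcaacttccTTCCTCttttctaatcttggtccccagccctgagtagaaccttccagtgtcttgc
Fcgr4, chr1:171018786-171018925, plus strand: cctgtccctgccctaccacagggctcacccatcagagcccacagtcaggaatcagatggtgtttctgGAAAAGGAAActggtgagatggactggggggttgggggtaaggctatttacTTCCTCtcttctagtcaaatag
Fcgr3, chr1:171059404-171059543, minus strand: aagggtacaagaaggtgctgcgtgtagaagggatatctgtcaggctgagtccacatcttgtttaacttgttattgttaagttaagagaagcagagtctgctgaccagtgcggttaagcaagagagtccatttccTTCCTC
In Fcgr1 the GAS lies 109 to 101 bases before the start and the PU.1 core 55 to 50 bases before it. In Fcgr4 the ISRE lies 73 to 64 and the PU.1 core 22 to 17 bases before the start. These are matches of letters and no measure of binding.

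The ratio between the libraries moved with the length and GC content of genes. With the counted genes in 10 equal groups by transcript length, the median log2 ratio ran from 0.17 in the third to −1.05 in the longest, and in 10 groups by GC content from −0.10 to −0.64. Each gene was therefore set beside the genes of its own bin of GC content and length. Syk had a log2 ratio of −1.51, and the 109 genes of its bin had a median of −1.48, with 61.5% of them more than 2-fold lower. Its distance from the bin was thus −0.03. Fcgr2b differed from its bin of 144 genes by −0.68, with a log2 ratio of −0.80 and a bin median of −0.12. Fcgr3 had a log2 ratio of 0.63 and lay 0.28 above its bin. The remaining genes lay within −0.31 (Fcgr4) and 0.13 (Fcer1g) of their bins. After this adjustment 9.70% of all genes were more than 2-fold higher and 12.7% more than 2-fold lower, and 0 of the 7 Fc receptor genes were in either class. The change in the log2 ratio of Fcgr3 to Fcgr2b between the libraries was 1.43 before and 0.96 after the adjustment.

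**Figure D4:**
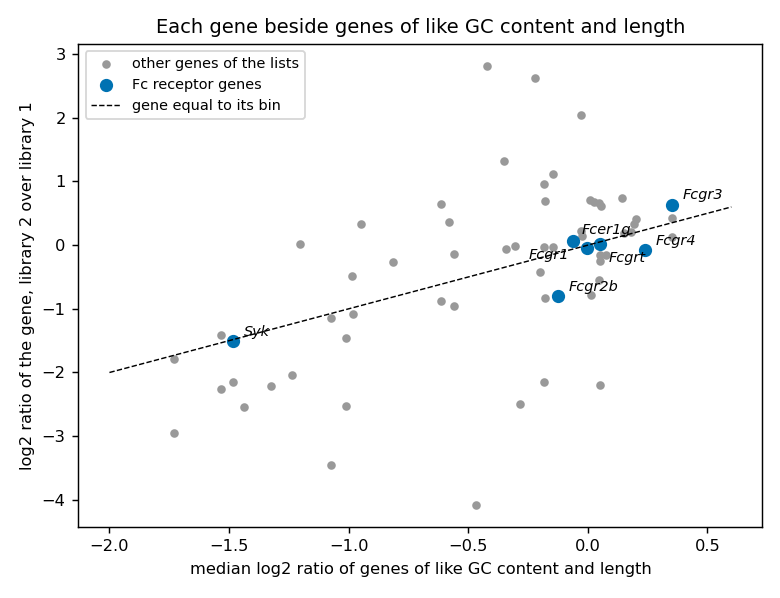
Log2 ratio of each gene, library 2 over library 1 (vertical), against the median log2 ratio of genes of like GC content and length (horizontal), for the 7 Fc receptor genes (blue, named) and the other genes of the pathway lists (grey). Syk lies on the dashed line of equality at −1.48, Fcgr2b lies below it and Fcgr3 above it.

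The sign of the small differences depended on the scaling. Fcgr1 and Fcgr4 had log2 ratios of −0.05 and −0.08 by total counts, but 0.20 and 0.17 with TMM scaling. With DESeq2 size factors these were 0.23 and 0.20, and relative to the summed microglia markers −0.41 and −0.44. Fcer1g and Fcgrt had 0.06 and 0.02 by total counts, but −0.30 and −0.34 relative to the summed microglia markers. Fcgr3 stayed higher in library 2 under these scalings, from 0.27 relative to the microglia markers to 0.91 with DESeq2. Fcgr2b stayed lower, from −1.16 to −0.53, and Syk from −1.88 to −1.24. Among all counted genes, 8.78% were higher and 19.7% lower past 2-fold with TMM, 9.28% and 19.0% with DESeq2, and 3.72% and 36.5% relative to the microglia markers.

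The pathway around the receptors was read from lists of related genes. Of 13 other Fc receptors, Fc receptor-like genes and antibody-binding proteins, 5 were counted. Of these, 0 passed 2-fold, beside 5.74% higher and 25.9% lower over all counted genes. Their median log2 ratio was −0.16, beside −0.26 over all counted genes. Fcrls, an Fc receptor-like gene typical of mouse microglia, was above every IgG receptor with 5347 and 4780 CPM (6516 and 4694 TPM). Fcrl1 had 86.7 and 115 CPM. Trim21, the cytosolic antibody receptor, had 30.3 and 20.7 CPM. The chains of the high-affinity IgE receptor that work with Fcer1g in basophils and mast cells differed: Fcer1a had 0 counts in library 1 and 243 in library 2 (at least 46.0-fold higher against the limit of 3 counts per library), and Ms4a2 had 0 and 99 (at least 18.8-fold higher). The summed basophil and mast cell markers, to which both genes belong, were 0.257 and 172 CPM, with 4743 counts for Prss34 and 1484 for Mcpt8 in library 2 and 0 for each in library 1.

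The Src and Tec family kinases act before or beside Syk. All 7 were counted, and 1 was higher and 2 were lower past 2-fold, with a median log2 ratio of −0.03, beside 5.74% higher and 25.9% lower over all counted genes. Lyn, a Src family kinase that phosphorylates both ITAMs and ITIMs, had 816 and 798 CPM. Btk, a Tec family kinase, had 100.2 and 126 CPM. The genes past 4-fold were Fyn, with 25.7 and 4.57 CPM, and Src, with 28.4 and 4.86 CPM. Fyn lay −2.20 and Src −1.11 on the log2 scale from their bins of GC content and length. The gene past 2-fold higher was Fgr, with 53.8 and 134 CPM, and it lay 1.66 above its bin.

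Of 13 receptors and chains that pair with Fcer1g or signal through Syk, 10 were counted, and 4 of these were higher and 0 lower past 2-fold, beside 5.74% and 25.9% of all counted genes. Their median log2 ratio was 0.65. After the adjustment for GC content and length, 5 were higher and 0 lower, beside 9.70% and 12.7% of all genes, and the median was 0.96. Clec4e and Clec4d, lectin receptors that signal through Fcer1g, had 15.0 and 105 CPM and 3.04 and 18.7 CPM. Trem1, which is also one of the mature neutrophil markers, had 37.2 and 153 CPM. Neutrophils carry these 3 receptors, and the summed mature neutrophil markers were 3463 and 30334 CPM in the same libraries. Trem2, the microglial receptor that signals through Tyrobp, had 1391 and 1760 CPM, and Clec5a 199 and 319 CPM. On the log2 scale Trem2 lay 1.29 and Clec5a 0.66 above their bins. Fcer1g itself had 1832 and 1915 CPM.

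Of 22 adaptors and enzymes downstream of Syk, 21 were counted, and 0 were higher and 9 lower past 2-fold, beside 5.74% and 25.9% of all counted genes. Their median log2 ratio was −0.43. After the adjustment for GC content and length, 2 were higher and 3 lower, beside 9.70% and 12.7% of all genes. Those past 4-fold before the adjustment were Rac1 (525 and 31.1 CPM), Grb2 (157 and 35.3 CPM), Was (61.8 and 13.5 CPM), Pik3cd (261 and 56.3 CPM), Plcg1 (57.1 and 12.9 CPM) and Gab2 (79.0 and 19.2 CPM). After it, Rac1, Grb2 and Was stayed past 2-fold lower. Pik3cd, Plcg1 and Gab2 did not, at −0.89, −0.66 and −0.81 on the log2 scale from their bins. Cdc42 (1110 and 1499 CPM), Rac2 (480 and 934 CPM) and Vav1 (540 and 401 CPM), which drive the actin changes of phagocytosis, were the highest of the list per length. The GTPase genes Rac1 and Rac2 thus differed in opposite directions, with Rac1 −3.61 and Rac2 1.14 on the log2 scale from their bins.

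Of 14 genes that limit the pathway, all 14 were counted, and 0 were higher and 6 lower past 2-fold, beside 5.74% and 25.9% of all counted genes. Their median log2 ratio was −0.85. After the adjustment 1 was higher and 3 were lower, beside 9.70% and 12.7% of all genes, and the median was −0.16. Inpp5d, the lipid phosphatase recruited by Fcgr2b, had 1113 and 233 CPM, a log2 ratio of −2.26 against −1.54 for its bin. The others past 4-fold were Inppl1 (27.7 and 3.60 CPM), Ptprj (138 and 12.6 CPM) and the ubiquitin ligase gene Cblb (16.0 and 2.77 CPM). After the adjustment these 3 stayed past 2-fold lower, at −1.21, −2.38 and −1.51 on the log2 scale from their bins. Ptpn6, the tyrosine phosphatase SHP-1, had 651 and 763 CPM, and Dok3 86.8 and 112 CPM. Fcgr2b and Inpp5d were both lower in library 2, but neither passed 2-fold after the adjustment, at −0.68 and −0.72 on the log2 scale. In the bin of Inpp5d, 64.5% of the genes were more than 2-fold lower. Ptpn6, which also binds inhibitory motifs, lay 0.26 above its bin.

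**Figure D5:**
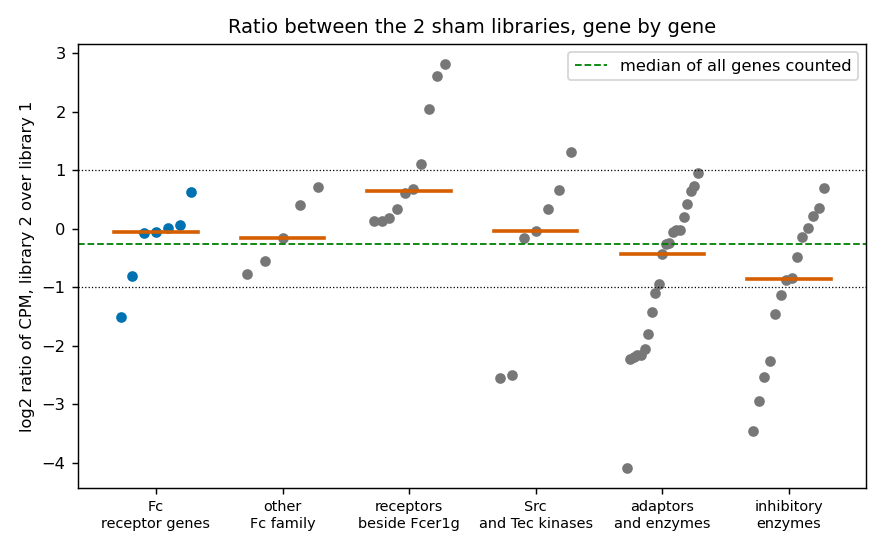
Log2 ratio of CPM, library 2 over library 1, for each counted gene of the Fc receptor group (blue) and of the 5 pathway lists (grey), with the median of each list (orange bar), the median of all counted genes at −0.26 (dashed) and the 2-fold limits (dotted). The Fc receptor genes lie between −1.51 and 0.63, and the adaptors and inhibitory enzymes reach further down.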

How the data were processed

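The authors used HISAT2 to map reads to GRCm38 and HTSeq for counting on Ensembl genes, and deposited raw counts, which are not normalized. Versions, annotation release and strand setting are not given in the sources used here. cDNA was made with the SMART-Seq HT Kit and libraries by tagmentation.

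Counts were scaled to 1000000 per library (CPM) or per exonic length (TPM, GENCODE M21). Symbols were matched for 53620 of 53801 identifiers. Library depth was 23381026 and 41142609 counts. With 2 samples of 1 group no condition was tested. The spread was estimated with edgeR 4.0.16 (DESeq2 1.42.0 as alternative, R 4.3.3), and other steps used Python 3.11.15, scipy 1.17.1 and Biopython 1.88. The ratio adjustment used 10 bins each of GC content and length, or of GC content alone under 20 genes, and was tested on simulated data. Outside the 7 genes, those named were the 3 highest per length of each list, genes past 4-fold with a mean of at least 100 counts, the top marker genes, and genes fixed by name; some genes that this rule covers are not reported here. Ly6g, Csf3r, Fgr, Fcrlb, Fcrla, Mcpt8, Prss34, the antisense genes and the neighbours in the cluster were named in addition, after their values were seen. The 7 genes and the lists were chosen with earlier results of these data known. The alternatives tried were scaling by TMM, by DESeq2 or by totals that left out mitochondrially encoded genes or marker genes of other cell types, scaling to microglia markers, other count filters, transcript length, and leaving out each library.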

Additional observations from a re-analysis of the deposited data

How the results depend on the processing

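Of the 7 Fc receptor genes, 0 were more than 2-fold higher in library 2 under the 6 alternative scalings tried. The number more than 2-fold lower was 1 (Syk) by total counts and with TMM, DESeq2, totals without mitochondrially encoded genes and totals without marker genes of other cell types, 2 (Fcgr2b and Syk) relative to the summed microglia markers and 0 after the adjustment for GC content and length. Leaving out 1 of 2 libraries only returns the value of the other, so it is no separate check. The Fcgr3 share of the IgG receptor level was 77.3% in library 1 and 86.9% in library 2. The ratio of activating receptors to Fcgr2b was 9.21 and 23.5. The share of all genes past 2-fold was 31.7% with at least 10 counts in both libraries, 28.3% with at least 100 and 38.0% with at least 1, and the common coefficient of variation was 0.479 with the filter on low counts and 0.550 without it. No paired analysis was possible because both samples belong to 1 group. With 2 libraries, the mean and SD of each gene rest on 2 values. By total counts, the counting intervals of the ratios of Fcgr4 (0.875 to 1.03) and Fcgrt (0.985 to 1.05) include 1. These intervals hold no spread between mice, since each side is 1 library. For none of the 7 genes can they show whether a difference exceeds that spread.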
